A study of Mus musculus with 8 samples.

Results

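The Zfp genes of mouse encode zinc finger proteins, and 271 of them were expressed in these embryos at the level required here. They were taken as gene symbols made of Zfp and a number, with at least 1 FPKM in at least 2 of the 8 libraries. FPKM counts the fragments of a transcript per kilobase of its length, relative to the depth of the library. Zfp352, Zfp42, Zfp57, Zfp36 and the Zfp36l genes were left out by the same rule. The deposited table held 386 such symbols among 24921 genes, of which 115 fell below the threshold, and 23 of those were listed at 0 in every library. The genes were therefore chosen by their measured FPKM, and nothing below rests on their being expressed. Just inside the threshold, the second-highest library of Zfp704 read 1.00 FPKM and that of Zfp408 1.03 FPKM. Just outside it, Zfp459 read 0.992 FPKM and Zfp503 0.968 FPKM. In 86 of the 271 genes every library reached 1 FPKM, and in 29 only 2 libraries did. Of those 29, 15 reached it through the libraries of a single group (10 through 2C, 4 through CX45 and 1 through 8C), so these had to differ between groups. In each comparison the main count over the 271 genes is therefore also given over the other 256. Counts by finger number, run, role list or setting include the 15.

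The libraries were Smart-seq preparations of total RNA from C57BL/6 mouse embryos, with 2 libraries in each of 4 groups named CX45, CX22, 8C and 2C. All groups shared the strain and a label of passage 1, and no label named another allele, agent, age or control. The 8-cell and 2-cell stages were taken as the meaning of 8C and 2C, whereas CX45 and CX22 are not spelled out in the labels and are used as names only. The series title concerned RNA polymerase I transcription and chromatin architecture in embryos. Nothing in the labels said that replicates came from separate pools of embryos, so the p-values describe the scatter of these libraries alone, which may be technical.

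Zinc finger proteins of the C2H2 kind hold tandem fingers, each folded round a zinc ion by a pair of cysteines and a pair of histidines, and arrays of fingers read long DNA sequences. Many also carry a KRAB box, a short domain that recruits the corepressor Trim28 (KAP1). Trim28 brings the histone methyltransferase Setdb1, HP1 proteins and histone deacetylases, and the target is silenced. In early mouse embryos this system is known for silencing endogenous retroviruses and for keeping methylation at imprinted loci. KRAB zinc finger genes lie in clusters of recent duplicates and evolve fast. Zfp genes without a KRAB box include transcription factors, chromatin proteins, RNA-binding proteins and ribosome assembly factors.

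Of the 269 genes for which a reading frame could be translated, 167 carried a KRAB box and 102 did not. The median number of fingers was 12 with a KRAB box and 7 without. In the coordinates of the deposited table (build mm9), 140 of the 271 genes lay in 23 runs of at least 4 neighbouring Zfp genes. Sequences of 31 bases shared with other genes made up a median of 2.33% of the transcript, under 10% in 192 of 269 genes and 50% or more in 18. Values of those 18 are uncertain, since reads from near-identical copies could be split between them.

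Steps between low values gave an estimated depth of 10980000 and 12700000 fragments in CX45, 9700000 and 12020000 in CX22, 17740000 and 20300000 in 8C, and 11920000 and 12820000 in 2C. At these depths 3 fragments on a 2 kb transcript came to between 0.0739 and 0.155 FPKM, which covers counting error only. For each gene the squared difference between the replicates was divided by its sampling variance, a ratio that grows with depth. Its median over genes was 64.4 times the chance median in CX45, 171 times in CX22, 40.2 times in 8C and 1.34 times in 2C. The 2C libraries thus differed by about sampling noise for most genes and were counted as 1 sample. CX22 replicates disagreed most: 161 of the 271 Zfp genes differed more than 2-fold between them, and 11 exceeded 5 FPKM in a single library of the pair while the other had 0. Summed stage markers separated 8C and CX45 from 2C and CX22, but not every gene of the lists followed the sums. Summed over 6 oocyte and early cleavage genes, levels ran between 133 and 153 FPKM in CX45, 1915 and 2514 in CX22, 24.1 and 27.9 in 8C, and 2565 and 2578 in 2C. Over 6 later cleavage genes the sums were 912 to 1197, 53.4 to 72.2, 1283 to 1603 and 65.4 to 67.8 FPKM in the same groups. In CX45 against 2C, 4 genes of each list were called the way of the sums, and Zp3, Zar1, Krt8 and Krt18 were not. Zp3 read 54.4 and 29.5 FPKM in CX45, 41.3 and 14.6 in CX22, 13.3 and 13.4 in 8C, and 14.7 and 15.5 in 2C. Krt8 read 1.46 and 0 FPKM in CX45, 0 and 0.412 in CX22, 5.77 and 6.45 in 8C, and 0.323 and 0.474 in 2C. Krt18 overlapped between the groups. Of 6 blood and immune genes, 5 were detected somewhere, Hbb-bs was at 0 in every library, and Ptprc reached at most 0.0701 FPKM. Hba-a1 alone held 286 and 347 FPKM in CX45, against 23.6 and 71.2 in CX22, 10.3 and 28.8 in 8C, and 106 and 104 in 2C, and it was called in CX45 against CX22. Lyz2 read 9.61 and 7.45 FPKM in CX45, 10.2 and 11.8 in CX22, 0 in each 8C library, and 0 and 1.92 in 2C, and was called in CX45 against 2C (adjusted p = 0.0255). Cd68 reached at most 12.7 FPKM and Cd3e at most 0.108. The 6 cumulus genes summed to at most 9.11 FPKM in a library, and the 6 sperm genes, with Tnp2 at 0 throughout, to at most 42.9 FPKM in CX22 replicate 1. The part of these cells in the results was not tested.

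Zfp transcripts made up a smaller share of the 8C libraries than of any other. They summed to 4149 and 3557 FPKM in CX45, 4331 and 3487 in CX22, 2677 and 2610 in 8C, and 3965 and 3985 in 2C. As a share of all FPKM these sums came to 0.643% and 0.556%, 0.760% and 0.724%, 0.386% and 0.389%, and 0.713% and 0.841%. The 8C libraries lay below the other 6 on both scales, the other groups overlapped in their sums, and on the share CX45 lay between 8C and the rest. FPKM is relative within a library, and fewer cells of a type and less RNA per cell cannot be told apart. The median Zfp gene read 3.48 and 3.89 FPKM in CX45, 2.78 and 3.27 in CX22, 1.72 and 1.85 in 8C, and 4.42 and 4.36 in 2C. The median of all 11873 genes tested was also lowest in 8C, at 3.09 and 3.10 FPKM. KRAB genes summed to 1196 and 1071 FPKM in 8C, against 2384 and 2408 in 2C, while genes without the box summed to 1468 and 1523 FPKM in 8C, against 1570 and 1566 in 2C. The sum of genes without the box holds Zfp706, at 594 and 513 FPKM in 8C. The median gene without the box was also lower in 8C, at 2.32 and 2.18 FPKM, against 4.39 and 4.31 FPKM in 2C. The median KRAB gene was at 1.53 and 1.57 FPKM in 8C, against 4.42 and 4.81 FPKM in 2C. In CX45 the KRAB sum was 1778 and 1726 FPKM, above both 8C libraries and below both 2C libraries. In CX22 it was 2476 and 2058 FPKM.

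**Figure D1:**
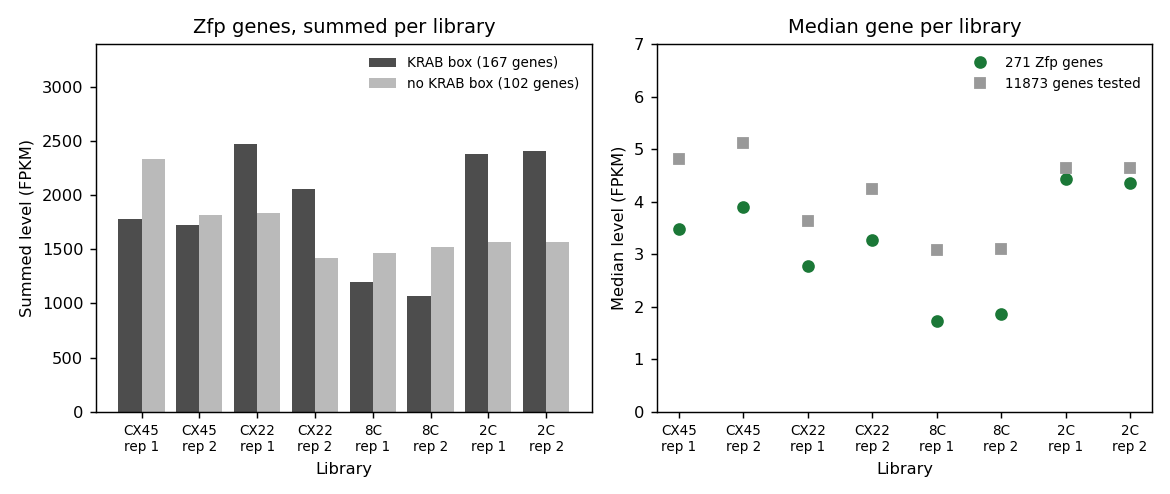
Summed and median Zfp levels in each of the 8 libraries, in FPKM. Bars on the left give the sum over the 167 genes with a KRAB box (dark) and the 102 without (light), and points on the right give the median Zfp gene (circles) beside the median of the 11873 genes tested (squares). The KRAB bars of 8C, at 1196 and 1071 FPKM, are the shortest of the 8 libraries.

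The highest levels belonged to a few genes. Zfp706, a small protein known for promoting exit from self-renewal in embryonic stem cells, read 333 and 378 FPKM in CX45, 421 and 455 in CX22, 594 and 513 in 8C, and 454 and 459 in 2C. The 8C libraries were above the rest, but no comparison of Zfp706 passed the test. Zfp367, a transcription factor with few fingers, read 793 and 271 FPKM in CX45, 594 and 146 in CX22, 158 and 108 in 8C, and 287 and 281 in 2C. Its replicates in CX45 and in CX22 lay further apart than the group means, and no comparison passed. Zfp985, a KRAB gene of the chromosome 4 run, read between 83.9 and 256.5 FPKM over the 8 libraries with overlapping groups. In 2C the next genes were Zfp982, Zfp68 and Zfp951, with means of 156, 151 and 125 FPKM, and all 3 fell in 8C.

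In 8C against 2C, Zfp genes were lower more often than higher. Levels were compared as log2(FPKM + 1) with limma, and a gene was called when its adjusted p was under 0.05 and its log2 fold change at least 1 in size. Of the 271 Zfp genes 57 fell and 18 rose (6.64%), while of all genes tested 37.1% were called, 20.7% as fallen and 16.3% as risen. The share that fell was therefore near that of all genes, and the share that rose was below it. The median log2 fold change was -0.53 over the Zfp genes and -0.04 over all genes, and 172 of the 271 were below 0. Without the 15 genes that passed through a single group, 50 fell and 17 rose of 256, and of the 15 themselves 7 fell and 1 rose.

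The genes with the lowest fold changes were KRAB genes. Zfp735 (chromosome 11, 73502280 to 73527310) read 0 and 0.0656 FPKM in 8C, against 69.6 and 70.4 FPKM in 2C. Zfp951 (chromosome 5, 105231265 to 105289087) read 0.964 and 2.13 FPKM in 8C, against 112 and 138 FPKM in 2C. Zfp68 (chromosome 5, 139044880 to 139060971) read 2.54 and 3.77 FPKM in 8C, against 152 and 151 FPKM in 2C. All 3 are KRAB genes, and they were picked among called genes whose groups did not overlap. Their log2 fold changes were -6.10 (SE 0.57, adjusted p = 0.00353), -5.67 (SE 0.43, adjusted p = 0.00233) and -5.21 (SE 0.49, adjusted p = 0.00353) in that order. In CX45 their levels were 9.28 and 4.64, 4.78 and 4.10, and 11.7 and 18.6 FPKM, and in CX22 28.7 and 47.9, 81.3 and 104, and 76.0 and 125 FPKM.

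The next genes had smaller but like differences. Zfp616 read 0 and 0.205 FPKM in 8C, against 36.5 and 36.8 FPKM in 2C. Zfp946 read 0.336 and 0.136 FPKM in 8C, against 30.2 and 30.7 FPKM in 2C. Zfp982 read 8.20 and 7.62 FPKM in 8C, against 168 and 144 FPKM in 2C. These are KRAB genes on chromosomes 11, 17 and 4. Zfp105, in which no KRAB box was found, read 0 and 0.443 FPKM in 8C, against 21.7 and 23.8 FPKM in 2C. Zfp518a (chromosome 19, 40969195 to 40992437), also without the box, read 7.01 and 6.46 FPKM in 8C, against 69.0 and 67.5 FPKM in 2C. Its fold change of -3.16 (SE 0.26, adjusted p = 0.0028) had the smallest error of the genes named so far. Zfp383 and Zfp667, KRAB genes of chromosome 7, read 0.0427 and 0 and 0.381 and 0.349 FPKM in 8C, against 14.2 and 14.8 and 11.5 and 11.4 FPKM in 2C. Both fell.

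Fewer genes rose. Zfp472 (chromosome 17, 33102776 to 33116156), a KRAB gene, read 23.4 and 36.8 FPKM in 8C, against 0.961 and 0.966 FPKM in 2C. Its log2 fold change was 3.95 (SE 0.51, adjusted p = 0.00716). Zfp960, another KRAB gene of chromosome 17, read 69.4 and 66.95 FPKM in 8C, against 5.93 and 6.39 FPKM in 2C. It rose by 3.27 (SE 0.26, adjusted p = 0.00258), but 89.2% of its sequence words were shared with other genes, so its level is uncertain. Zfp180 read 10.4 and 8.08 FPKM in 8C, against 0.0223 and 0 FPKM in 2C, and Zfp710 read 5.81 and 7.80 FPKM in 8C, against 0 and 0.0175 FPKM in 2C. Zfp511, with 15.5 and 20.95 FPKM in 8C, and Zfp110, with 5.97 and 6.20 FPKM in 8C, were listed at 0 in both 2C libraries. These 6 genes were picked as called genes whose groups did not overlap, so both traits follow from the choice.

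**Figure D2:**
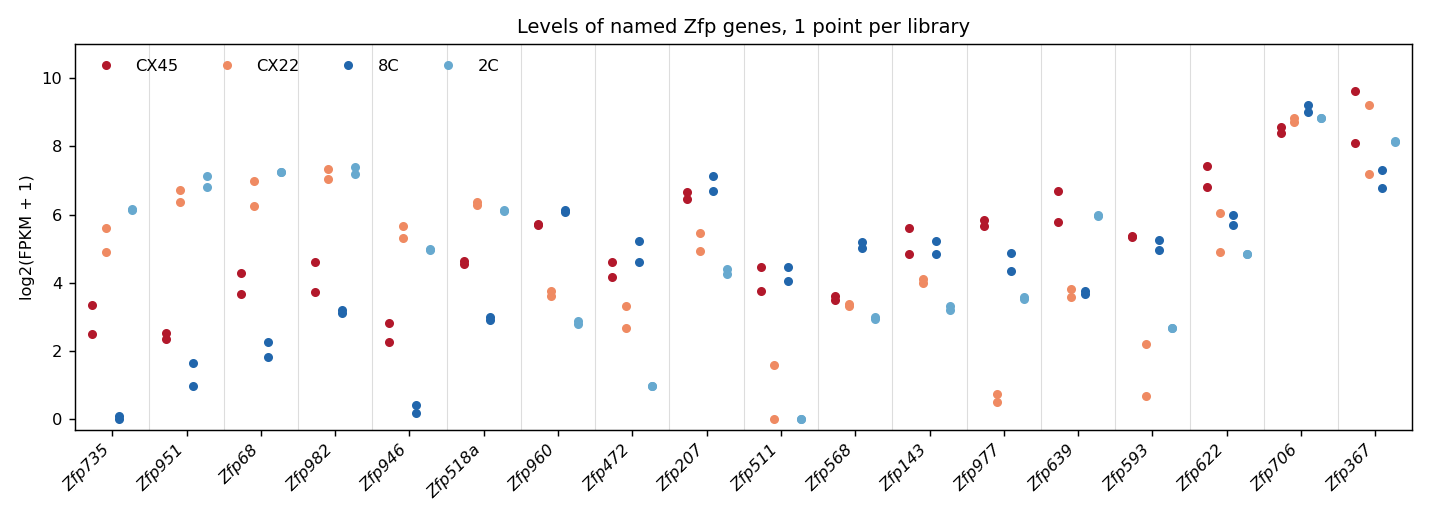
Levels of 18 Zfp genes as log2(FPKM + 1), with 1 point per library and colours for CX45, CX22, 8C and 2C from left to right within a gene. Zfp735, Zfp951, Zfp68, Zfp982, Zfp946 and Zfp518a lie low in 8C and high in 2C, with CX45 between them and CX22 near 2C. Zfp472, Zfp960 and Zfp207 have the 8C points above the 2C points.

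Fewer genes were called when an 8C library was left out, among Zfp genes and among all genes tested. The same happened in CX45 against CX22, in which 8C takes no part. The spread of the 8C pair enters the error used in every comparison, so these fits do not single out the 8C levels. The median Zfp log2 fold change was -0.60 without 8C replicate 1 and -0.54 without 8C replicate 2, against -0.53 with both. Of the 22 called genes named by rule in this comparison, 14 and 16 lost the call in these fits. Over 18 settings, the one reported included, 9 genes were called every time: Zfp40, Zfp518a, Zfp68, Zfp735, Zfp943, Zfp946, Zfp951, Zfp960 and Zfp982.

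KRAB genes and the others differed little in the shares called, and no test compared them. Of the 167 KRAB genes 39 fell (23.4%) and 9 rose (5.39%) in 8C against 2C, with a median log2 fold change of -0.53. Of the 102 genes without the box 18 fell (17.6%) and 9 rose (8.82%), with a median of -0.54. Of all genes tested 20.7% fell and 16.3% rose. Without the genes that passed through a single group, 34 of 158 KRAB genes fell and 8 rose, and 16 of 96 others fell and 9 rose. Counts by finger number were close to these. Of 163 genes with 10 or more fingers 36 fell (22.1%) and 10 rose (6.13%), and of 99 genes with 1 to 9 fingers 20 fell (20.2%) and 7 rose (7.07%).

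**Figure D3:**
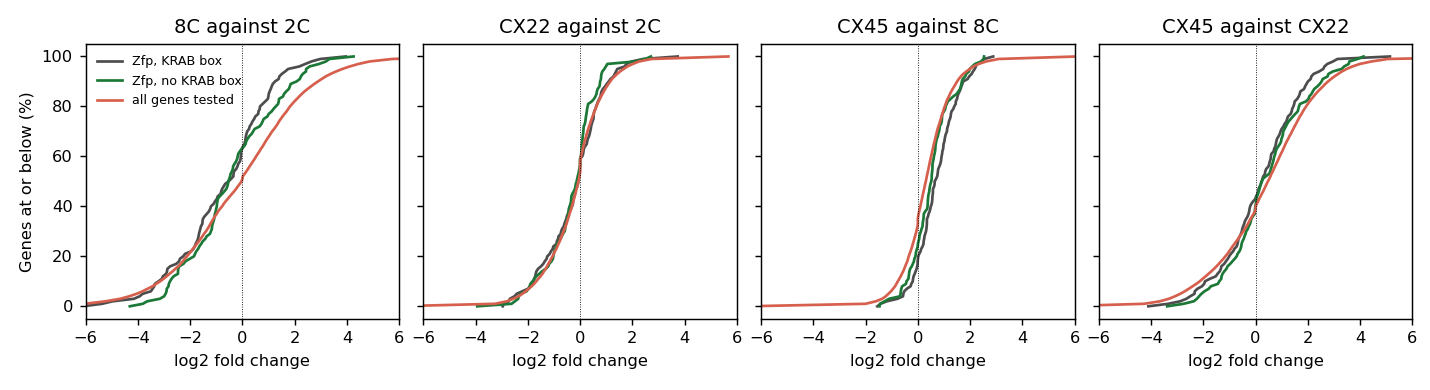
Cumulative share of genes (percent) at or below each log2 fold change in 4 comparisons, for Zfp genes with a KRAB box, Zfp genes without it and all 11873 genes tested. In 8C against 2C both Zfp curves lie left of all genes above 0, with medians of -0.53 and -0.54 against -0.04. In CX45 against 8C the KRAB curve lies to the right, with a median of 0.64 against 0.31 for all genes.

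The role lists are short and are described beside the background of 16.3% risen and 20.7% fallen in 8C against 2C. Of 9 KRAB proteins known for retroelements and imprints 8 were tested, 2 rose and 0 fell. Zfp568, which represses a placental transcript of Igf2, read 31.3 and 35.9 FPKM in 8C, against 6.70 and 7.01 FPKM in 2C. It rose by 2.14 (SE 0.32, adjusted p = 0.00971). Zfp429 read 2.29 and 2.45 FPKM in 8C, against 0 in each 2C library, and it is one of the genes that passed through a single group. Zfp809, which recognises the proline primer binding site of murine leukaemia proviruses, read 4.70 and 4.56 FPKM in 8C, against 8.66 and 8.30 FPKM in 2C (adjusted p = 0.364). Zfp445, which helps to keep imprints, read 4.19 and 4.51 FPKM in 8C, against 10.6 and 10.4 FPKM in 2C (adjusted p = 0.0979). Zfp932, a repressor of endogenous retroviruses, read 74.96 and 70.5 FPKM in 8C, against 91.5 and 93.9 FPKM in 2C (adjusted p = 0.562). For Zfp809, Zfp445 and Zfp932 the groups did not overlap, but the differences did not pass the test. Zfp819 read 0 and 0.164 FPKM in 8C, against 10.7 and 11.5 FPKM in 2C (adjusted p = 0.0518). Zfp689 fell below the threshold. The remaining tested genes, Zfp708 and Zfp961, differed by -0.70 and -0.06 on the log2 scale.

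Among 10 genes known from pluripotent cells and the early embryo, 8 were tested, 2 rose and 1 fell. Zfp207, a spindle and kinetochore protein that also takes part in pluripotency, read 103 and 140 FPKM in 8C, against 20.3 and 18.3 FPKM in 2C. It rose by 2.57 (SE 0.36, adjusted p = 0.0084). Zfp143, a transcription factor that binds promoters, read 27.8 and 36.6 FPKM in 8C, against 8.15 and 8.94 FPKM in 2C, and rose by 1.79 (SE 0.44, adjusted p = 0.0342). Zfp322a, a pluripotency factor, read 1.85 and 2.72 FPKM in 8C, against 16.7 and 17.3 FPKM in 2C, and fell by 2.46 on the log2 scale (adjusted p = 0.0301). Zfp296, which works with Klf4 in reprogramming, read 51.6 and 168 FPKM in 8C, against 9.30 and 9.26 FPKM in 2C. Its 8C libraries lay above both 2C libraries but far from each other, and it did not pass (adjusted p = 0.0667). Zfp281, a pluripotency transcription factor, read 14.2 and 9.75 FPKM in 8C, against 12.4 FPKM in each 2C library. Zfp830, needed in the inner cell mass, and Zfp217 were not called either, with log2 fold changes of -0.55 and -0.48. Zfp219 and Zfp462 fell below the threshold.

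Of 12 genes of chromatin and transcription complexes, 9 were tested, 3 fell and 1 rose. Zfp592 and Zfp532, partners in one transcription complex, fell. Zfp592 read 1.60 and 1.43 FPKM in 8C, against 12.5 and 13.2 FPKM in 2C, and Zfp532 read 0.603 and 0.658 FPKM in 8C, against 11.6 and 10.8 FPKM in 2C. Zfp451, a SUMO ligase, read 2.33 and 3.86 FPKM in 8C, against 27.8 and 27.4 FPKM in 2C, and fell by 2.83 on the log2 scale (adjusted p = 0.0239). Zfp335, a component of histone H3 lysine methyltransferase complexes, read 4.75 and 3.88 FPKM in 8C, against 0.109 and 0.136 FPKM in 2C, and rose. Zfp148, Zfp91 and Zfp644 were not called, with log2 fold changes of -0.98, -1.07 and 1.15. Zfp609 and Zfp668 were low throughout, at no more than 2.53 and 2.30 FPKM. Zfp687, Zfp827 and Zfp384 fell below the threshold.

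Of 9 genes acting on RNA or ribosomes, 8 were tested, 1 rose and 0 fell. Zfp593, an assembly factor of the large ribosomal subunit by its yeast counterpart, read 30.3 and 37.1 FPKM in 8C, against 5.35 and 5.40 FPKM in 2C (adjusted p = 0.0488). That call was lost with a pseudocount of 0.1, with no filter on low values, with the highest transcript entry and with the replicate number as a block. Zfp622, a late factor of the same subunit, read 62.1 and 51.2 FPKM in 8C, against 27.96 and 27.5 FPKM in 2C (adjusted p = 0.222). Zfp598, which marks collided ribosomes, read 7.67 and 6.43 FPKM in 8C, against 11.5 and 10.1 FPKM in 2C (adjusted p = 0.556). Zfp318, with 0.253 and 0.490 FPKM in 8C, against 16.3 and 16.0 FPKM in 2C, narrowly missed the threshold (adjusted p = 0.055). Zfp106, Zfp326, Zfp346 and Zfp638 were not called, with log2 fold changes of -1.41, 0.49, -0.63 and 0.22, and Zfp385a fell below the expression threshold. Of 7 tissue development factors only Zfp703 and Zfp750 were tested, and neither was called. Zfp750, a factor of epidermal differentiation, read 0 in each 8C library, against 6.95 and 7.03 FPKM in 2C (adjusted p = 0.11). Zfp423, Zfp503 and Zfp608 reached 1 FPKM in a single library, and Zfp521 and Zfp516 were listed at 0 in every library.

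Counts are given here for the runs of neighbouring Zfp genes, beside 57 fallen and 18 risen of the 271 Zfp genes and the 20.7% and 16.3% of all genes tested. The run on chromosome 17 from 21145905 held 23 Zfp genes, of which 19 were expressed here. In 8C against 2C 8 of the 19 fell and 1 rose, with a median log2 fold change of -2.27. In the run on chromosome 7 from 30553571, 6 of 12 fell and 1 rose (Zfp568), with a median of -1.44. In the run on chromosome 4 from 145100662, 4 of 12 fell and 0 rose, with a median of -1.23. In the second run of chromosome 17, from 32902441, 0 of 9 fell and 1 rose, with a median of 0.62. In the run on chromosome 13 from 67139530, 1 of 16 fell (Zfp953) and 2 rose (Zfp429 and Zfp874a). Zfp953, Zfp429 and, in the chromosome 7 run, the fallen Zfp146 passed the threshold through a single group, so these had to differ between groups. The medians of the runs stand beside -0.53 for the 271 genes, and no test compared the runs.

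Within the first chromosome 17 run, neighbours did not all move together. Zfp820 read 48.6 and 58.0 FPKM in 8C, against 58.7 and 59.2 FPKM in 2C, while Zfp760 and Zfp229, just before it, fell. Zfp760 read 0.745 and 0.668 FPKM in 8C, against 10.7 and 11.7 FPKM in 2C. Zfp947 read 18.7 and 17.7 FPKM in 8C, against 2.38 and 1.43 FPKM in 2C, which did not pass (adjusted p = 0.061). Zfp995 read 2.07 and 1.31 FPKM in 8C, against 0 in each 2C library, and it was called as risen.

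**Figure D4:**
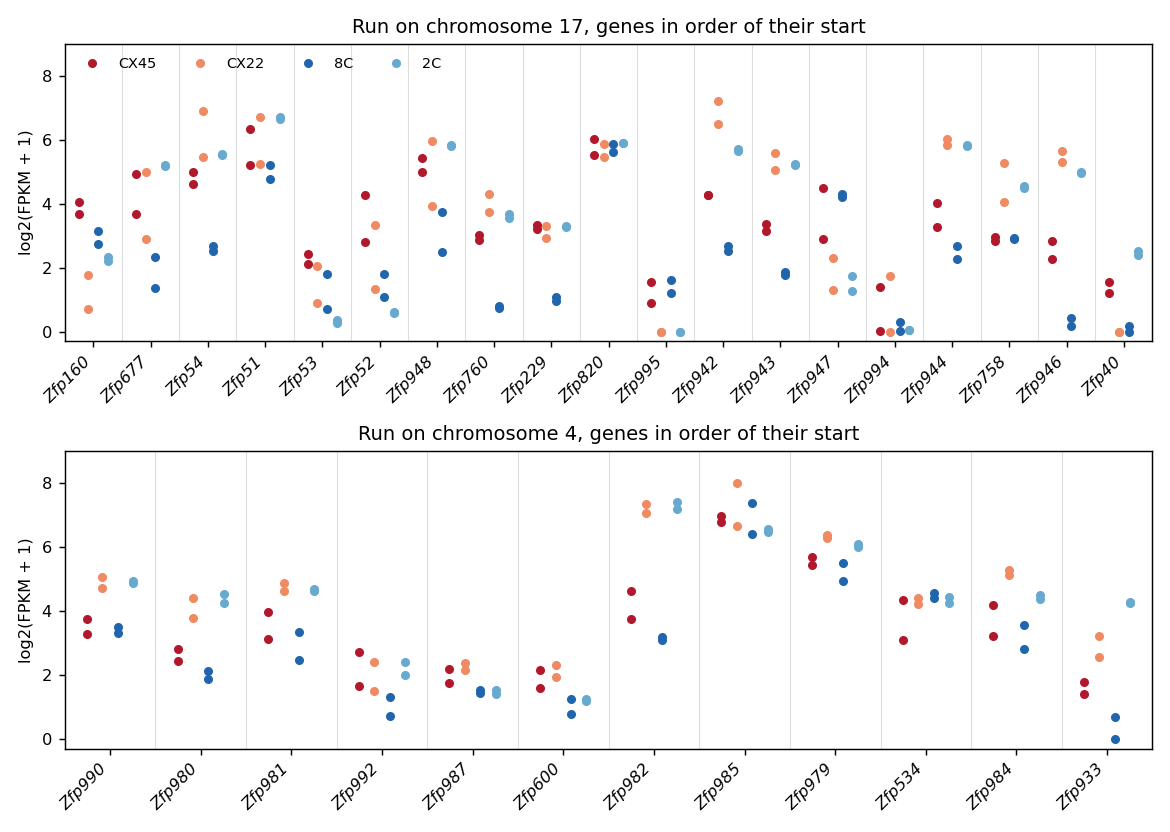
Levels as log2(FPKM + 1) of 19 Zfp genes of the chromosome 17 run (top) and 12 of the chromosome 4 run (bottom), with 1 point per library, colours for CX45, CX22, 8C and 2C from left to right, and genes in order of their start. Zfp820 and Zfp985 have overlapping groups, whereas Zfp946 and Zfp982 lie low in 8C and high in 2C.

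A pair of neighbours in this run starts back to back, and the arrangement is present again further along the chromosome. Zfp942 (22063930 to 22099431) and Zfp943 (22099526 to 22131333) lay 94 bases apart in mm9, and Zfp944 (22474950 to 22498367) and Zfp758 (22498420 to 22514248) lay 52 bases apart. Zfp942 read 5.44 and 4.801 FPKM in 8C, against 49.6 and 52.1 FPKM in 2C. Zfp943 read 2.66 and 2.40 FPKM in 8C, against 36.6 and 36.3 FPKM in 2C. Zfp944 read 5.37 and 3.841 FPKM in 8C, against 55.1 and 55.9 FPKM in 2C. These 3 genes fell, by 3.09, 3.41 and 3.35 on the log2 scale, with adjusted p of 0.00678, 0.00536 and 0.00779. Zfp758 read 6.49 and 6.58 FPKM in 8C, against 22.4 and 21.7 FPKM in 2C, and was not called (log2 fold change -1.61, adjusted p = 0.0934).

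The promoter windows of these 4 genes show how alike the copies are. Windows hold 300 bases, 250 before and 50 after the start, from RefSeq on GRCm38.p6, whose coordinates are not those of mm9. Capitals mark bases that differ from, or have no counterpart in, the other window of the pair. The windows of Zfp942 (chr17:21962415-21962714, minus strand) and Zfp944 (chr17:22361351-22361650, minus strand) were 91.3% identical, and 26 bases of each are in capitals.
Zfp942: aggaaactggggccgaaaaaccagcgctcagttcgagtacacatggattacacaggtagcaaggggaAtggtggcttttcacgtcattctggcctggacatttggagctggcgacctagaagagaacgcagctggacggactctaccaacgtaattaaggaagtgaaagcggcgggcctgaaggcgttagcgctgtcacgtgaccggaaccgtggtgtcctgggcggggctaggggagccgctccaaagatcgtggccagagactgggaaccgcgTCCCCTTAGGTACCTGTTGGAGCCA
Zfp944: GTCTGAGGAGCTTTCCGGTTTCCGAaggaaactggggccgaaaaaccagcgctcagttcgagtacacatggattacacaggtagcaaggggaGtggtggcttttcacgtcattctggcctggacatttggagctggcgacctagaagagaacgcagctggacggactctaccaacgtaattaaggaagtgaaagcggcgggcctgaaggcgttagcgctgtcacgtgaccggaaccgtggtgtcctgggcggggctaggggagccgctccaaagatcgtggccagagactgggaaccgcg
Those of Zfp943 (chr17:21962309-21962608, plus strand) and Zfp758 (chr17:22361213-22361512, plus strand) were 97.3% identical, with 8 bases of each in capitals.
Zfp943: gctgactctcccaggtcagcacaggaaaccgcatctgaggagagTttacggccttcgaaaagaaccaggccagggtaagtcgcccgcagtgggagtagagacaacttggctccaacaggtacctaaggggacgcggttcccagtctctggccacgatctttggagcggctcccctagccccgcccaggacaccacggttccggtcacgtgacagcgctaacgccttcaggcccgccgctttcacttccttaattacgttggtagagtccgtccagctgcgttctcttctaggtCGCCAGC
Zfp758: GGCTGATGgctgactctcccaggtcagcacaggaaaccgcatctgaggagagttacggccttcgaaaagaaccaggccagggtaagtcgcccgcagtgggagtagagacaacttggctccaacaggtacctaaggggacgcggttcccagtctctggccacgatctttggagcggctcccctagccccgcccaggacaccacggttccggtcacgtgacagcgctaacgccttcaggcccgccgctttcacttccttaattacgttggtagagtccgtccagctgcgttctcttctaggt
The Zfp942 and Zfp943 windows shared 194 bases on opposite strands, and those of Zfp944 and Zfp758 shared 162. Over the 17 genes of the run with a promoter window, the median identity between pairs was 58.7%, and only these 2 pairs reached 85%. At transcript level 11.2% of sequence words of Zfp942, 6.92% of Zfp943, 22.6% of Zfp944 and 13.2% of Zfp758 were shared with other genes.

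Near-identical promoters also stood before genes of unequal level. Promoter windows were most alike in the chromosome 4 run, with a median identity of 77.0% over 45 pairs and 10 pairs at 85% or more. Zfp979 (chr4:147642459-147642758, minus strand) and Zfp600 (chr4:146156577-146156876, plus strand), again on GRCm38.p6, were 96.7% identical, and 10 bases of each are in capitals.
Zfp979: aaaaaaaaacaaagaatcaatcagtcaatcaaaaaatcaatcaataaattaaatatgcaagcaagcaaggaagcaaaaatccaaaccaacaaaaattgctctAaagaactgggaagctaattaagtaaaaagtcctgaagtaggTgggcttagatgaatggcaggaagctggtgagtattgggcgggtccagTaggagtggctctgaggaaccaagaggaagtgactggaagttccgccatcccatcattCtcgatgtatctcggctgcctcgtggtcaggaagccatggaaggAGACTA
Zfp600: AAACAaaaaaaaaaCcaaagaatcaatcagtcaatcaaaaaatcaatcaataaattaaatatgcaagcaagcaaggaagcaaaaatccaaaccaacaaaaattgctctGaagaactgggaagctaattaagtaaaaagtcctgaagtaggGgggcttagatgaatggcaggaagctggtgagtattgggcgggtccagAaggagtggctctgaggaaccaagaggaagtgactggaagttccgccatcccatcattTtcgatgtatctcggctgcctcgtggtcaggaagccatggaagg
Zfp979 read 50.8 and 42.5 FPKM in CX45, 76.9 and 81.6 in CX22, 44.7 and 30.0 in 8C, and 63.2 and 67.8 in 2C. Zfp600 read 3.48 and 2.02 FPKM in CX45, 2.83 and 3.96 in CX22, 1.40 and 0.708 in 8C, and 1.36 and 1.29 in 2C. No library of Zfp600 came near any library of Zfp979, but 87.3% of the sequence words of Zfp600 were shared with other genes, so its level is uncertain.

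Promoter windows were found for 231 of the 271 genes, 277 windows in all, and were searched on both strands for short motifs. CCGGAAG, the core of an ETS site, stood in 24.5% of the Zfp windows and in 8.86% of all 32851 windows. Those windows covered 27025 genes, expressed here or not, whereas the Zfp genes were chosen as expressed, so the sets are unlike in that too. CCAAT stood in 50.2% and 37.4%, and GGGCGG in 46.2% and 35.7%. TATAAA was rarer, with 6.86% of Zfp windows and 13.6% of all windows. CACGTG stood in 18 Zfp windows (6.5%) and in 7.15% of all windows. In genes that fell in 8C, CCGGAAG stood in 15 of 60 windows, and in genes that rose in 3 of 15. A match describes the letters of the window, and the windows of duplicated genes share them.

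In CX22 against 2C few Zfp genes were called. Of the 271, 7 fell (2.58%) and 0 rose, while 3.89% of all genes were called, 3.29% lower and 0.598% higher, so the Zfp share is no higher than the background. Of the 256 genes that did not pass through a single group 3 fell (1.17%). The median log2 fold change was -0.09, against -0.07 for all genes, and it was 0.05 under quantile normalization. Zfp977, a KRAB gene of chromosome 7, read 0.678 and 0.411 FPKM in CX22, against 10.99 and 10.5 FPKM in 2C. It fell by 2.93 on the log2 scale (SE 0.40, adjusted p = 0.0321). Zfp963 read 0 in both CX22 libraries, against 4.98 and 5.91 FPKM in 2C, and Zfp40 read 0 in both, against 4.28 and 4.81 FPKM in 2C. Zfp28, Zfp41, Zfp953 and Zfp973 completed the 7, and they passed the expression threshold through 2C alone. The calls changed when 1 library was left out, for Zfp genes and for all genes tested, and 0 of the 7 were called under every setting. The Zfp median was -0.045 without CX22 replicate 1 and -0.139 without CX22 replicate 2.

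In CX45 against 8C limma called 0 Zfp genes, while 0.665% of all genes were called, 0.463% higher and 0.202% lower. With no adjustment, 60 of 271 Zfp genes lay above 8C and 6 below it at p under 0.05, as did 1778 and 508 of the 11873 genes tested. Over the 256 genes the counts were 56 and 5. The log2 fold change was above 0 in 213 of the 271 genes, with a median of 0.57 against 0.31 over all genes. Under upper-quartile scaling the Zfp median was 0.34 and that of all genes 0.05, and under quantile normalization they were 0.16 and 0.00. For KRAB genes the median was 0.64 and for the others 0.51. Zfp518a read 23.9 and 22.5 FPKM in CX45, against 7.01 and 6.46 FPKM in 8C, a difference of 1.65 (SE 0.21, adjusted p = 0.0582). Zfp229 read 9.14 and 8.29 FPKM in CX45, against 1.13 and 0.969 FPKM in 8C (adjusted p = 0.0751). Zfp568 read 11.2 and 10.4 FPKM in CX45, against 31.3 and 35.9 FPKM in 8C, a difference of -1.55 (adjusted p = 0.0782). In these 3 genes the groups did not overlap, but none passed the test. The chromosome 17 run had a median of 1.28, the chromosome 7 run from 30553571 one of 0.85 and the chromosome 4 run one of 0.56.

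The mean of CX45 lay between those of 8C and 2C in 129 of the 271 genes (47.6%), at or above both in 117 (43.2%) and at or below both in 25 (9.23%). For all genes these shares were 51.9%, 35.1% and 13.1%. The group with the highest mean was CX45 for 92 Zfp genes (33.9%), CX22 for 69 (25.5%), 8C for 25 (9.23%) and 2C for 85 (31.4%). Over all genes tested these shares were 29.3%, 20.9%, 22.1% and 27.7% in the same order. These are counts of means with no test.

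In CX45 against CX22, 45 Zfp genes rose (16.6%) and 28 fell (10.3%), while 36.4% of all genes were called, 23.0% higher and 13.5% lower. Both shares are below the background, and over the 256 genes 41 rose and 28 fell. Zfp977 read 56.5 and 50.1 FPKM in CX45, against 0.678 and 0.411 FPKM in CX22, a log2 fold change of 5.14 (SE 0.33, adjusted p = 0.00349). Zfp410, the activator of the remodeller gene Chd4, read 32.6 and 24.5 FPKM in CX45, against 1.78 and 0 FPKM in CX22, and rose (adjusted p = 0.00962). Zfp593, the ribosome assembly factor, read 40.2 and 39.3 FPKM in CX45, against 0.621 and 3.60 FPKM in CX22, and rose by 3.90 (SE 0.56, adjusted p = 0.00956). Zfp977, Zfp410 and Zfp593 were picked as called genes whose groups did not overlap. Zfp791 read 11.5 and 26.2 FPKM in CX45, against 0.638 and 0.818 FPKM in CX22, and Zfp639 read 101.6 and 53.8 FPKM in CX45, against 13.1 and 10.9 FPKM in CX22. Both rose. Zfp346, a protein that binds double-stranded RNA, read 10.04 and 8.96 FPKM in CX45 and was listed at 0 in CX22. Zfp622 read 170 and 112 FPKM in CX45, against 64.7 and 29.2 FPKM in CX22 (adjusted p = 0.0492). Of the RNA and ribosome list 3 genes thus rose, and 1 fell: Zfp326, a splicing factor, with 1.16 and 1.14 FPKM in CX45, against 3.25 and 6.55 FPKM in CX22. The calls of Zfp622 and Zfp326 were each lost with a pseudocount of 0.1, with no filter on low values, with the highest transcript entry and without either 8C or either CX45 library or CX22 replicate 2. That of Zfp622 was also lost under both other scalings and without a variance trend, and that of Zfp326 with the replicate block. Those of Zfp593 and Zfp410 were lost without either CX45 library. Of the chromatin list Zfp335 and Zfp644 rose and Zfp592 fell. Zfp644, a partner of the H3K9 methyltransferases Ehmt1 and Ehmt2, read 53.2 and 43.3 FPKM in CX45, against 6.96 and 13.5 FPKM in CX22, but with its highest transcript entry alone it was lower in CX45. Of the pluripotency list Zfp207 rose, with 87.1 and 101.0 FPKM in CX45, against 42.8 and 29.6 FPKM in CX22, and of the retroelement and imprint list 0 were called. The call of Zfp207 was lost under quantile normalization and without either 8C library, either CX45 library or CX22 replicate 2. That of Zfp644 was lost without either CX45 library, and that of Zfp592 without either 8C library or CX45 replicate 1.

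Of the 28 genes that fell in CX45 against CX22, 19 were KRAB genes, 11.4% of all KRAB genes, and 9 of those without the box fell, 8.82%, both below the 13.5% of all genes tested. Zfp951 read 4.78 and 4.10 FPKM in CX45, against 81.3 and 104 FPKM in CX22, a log2 fold change of -4.10 (SE 0.35, adjusted p = 0.00444). Zfp982 read 12.4 and 23.6 FPKM in CX45, against 132 and 161 FPKM in CX22. Zfp942 read 18.3 FPKM in each CX45 library, against 149 and 89.7 FPKM in CX22. Zfp951 and Zfp982 were picked as called genes whose groups did not overlap, and Zfp942 by its level in CX22. Zfp758, the neighbour not called between 8C and 2C, read 6.87 and 6.12 FPKM in CX45, against 38.2 and 15.6 FPKM in CX22, and fell (adjusted p = 0.0459). Zfp69, a KRAB gene, read 0 and 0.0333 FPKM in CX45, against 22.7 and 9.75 FPKM in CX22, and Zfp513 read 0.492 and 1.99 FPKM in CX45, against 16.8 and 26.2 FPKM in CX22. Both fell. The split of the calls depends on scaling, with 34 higher and 35 lower under upper-quartile scaling and 28 higher and 43 lower under quantile normalization, where the Zfp median of 0.23 became 0.04 and -0.10. Over all genes tested the split moved too, from 2729 higher and 1597 lower to 2251 and 1789 under upper-quartile scaling and to 2018 and 2080 under quantile normalization.

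In CX45 against 2C, 25 Zfp genes rose (9.23%) and 27 fell (9.96%), while 29.8% of all genes were called, 16.2% higher and 13.6% lower. Both shares are below the background. Over the 256 genes 21 rose and 22 fell, so 9 of the 52 calls were genes that passed through a single group. Under upper-quartile scaling 16 rose and 38 fell, and under quantile normalization 19 rose and 42 fell. The split over all genes tested moved too, from 1924 risen and 1612 fallen to 1547 and 1820 under upper-quartile scaling and to 1601 and 1946 under quantile normalization. Under these scalings the Zfp median of 0.14 became -0.10 and -0.07, and with the highest transcript entry of each gene it was -0.05. This comparison, CX22 against 2C and 8C against 2C share the 2C sample, and CX45 against 8C, against CX22 and against 2C share the CX45 libraries, so they do not give independent counts. Zfp667 read 0 and 0.322 FPKM in CX45, against 11.5 and 11.4 FPKM in 2C, a log2 fold change of -3.44 (SE 0.39, adjusted p = 0.00777). Zfp951, Zfp982 and Zfp960 were called too, with log2 fold changes of -4.54, -3.11 and 2.86, and these 4 genes were called under each of the 18 settings. Zfp936, a KRAB gene among the most abundant in CX45, read 107 and 168 FPKM in CX45, against 36.0 and 37.3 FPKM in 2C, and rose by 1.84 (adjusted p = 0.0375). Zfp865 read 29.9 and 7.25 FPKM in CX45, against 0.0549 and 0.0514 FPKM in 2C, and rose (adjusted p = 0.0371), with CX45 replicates that differed widely.

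The difference between CX45 against 8C and CX22 against 2C was called for 8 Zfp genes, all higher (2.95%), while 3.6% of all genes were called, 3.2% higher and 0.404% lower. The count is therefore no higher than the background, and 4 of the 8 (Zfp28, Zfp41, Zfp953 and Zfp973) passed the expression threshold through 2C alone, which leaves 4 of 256 (1.56%). The other 4 were Zfp639, Zfp977, Zfp40 and Zfp963. Zfp639 read 101.6 and 53.8 FPKM in CX45, against 12.6 and 11.7 FPKM in 8C, and 13.1 and 10.9 FPKM in CX22, against 61.3 and 63.1 FPKM in 2C. It was thus higher in CX45 than in 8C and lower in CX22 than in 2C in every library, although neither comparison passed alone (adjusted p = 0.0676 and 0.083). None of the 8 calls held with the replicate number as a block, under quantile normalization, in the fit without a variance trend, or without either 8C library.

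The partners through which KRAB proteins silence chromatin were measured beside them. Of 36 corepressor genes 34 were tested, and in 8C against 2C 8 rose (23.5%) and 6 fell (17.6%), near the 16.3% and 20.7% of all genes. Trim28, the hub of the complex, read 85.2 and 101.4 FPKM in 8C, against 4.65 and 4.47 FPKM in 2C, and rose by 4.08 (SE 0.97, adjusted p = 0.032). Setdb1, its histone methyltransferase, was at 0 in each 8C library, against 8.46 and 7.75 FPKM in 2C, and was called as fallen. Smarcad1, a remodeller that binds Trim28, read 254 and 233 FPKM in 8C, against 4.73 and 4.96 FPKM in 2C. Resf1, a Setdb1 partner, read 33.8 and 38.7 FPKM in 8C, against 167 and 169 FPKM in 2C, and fell. Trim28 read 48.7 and 61.4 FPKM in CX45, against 0.0631 and 4.18 FPKM in CX22, and rose by 4.57 (SE 0.79, adjusted p = 0.0143). Setdb1 read 10.1 and 16.1 FPKM in CX45 and was the 1 gene of the list called against 8C, where it was listed at 0 (adjusted p = 0.0469). With no filter on low values, under quantile normalization, with the replicate number as a block, or without any one of the CX45, CX22 or 8C libraries, 0 genes of the whole table were called in that comparison, so this call was lost in each. Without a variance trend, 0 genes of the whole table were called higher and 2 lower, so the rise of Setdb1 was lost there too. In CX22 against 2C limma called 0 of the 34, beside 3.89% of all genes. With p left unadjusted (under 0.05), 4 were higher and 0 lower, beside 606 higher and 1315 lower of the 11873 genes tested.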

How the data were processed

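Transcripts were measured by Smart-seq in 8 libraries. Per the submitters' processing notes, the tools HISAT2 (listed with version 4.8.2) and Cufflinks (2.2.1) and the build mm9 were used, and their settings are not stated in the sources used here. The authors deposited FPKM values for 41876 transcript entries. These are not counts, and reads were not reprocessed.

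FPKM were summed per gene symbol (41685 entries matched, 191 did not). Genes with at least 1 FPKM in at least 2 libraries, 11873 in number, were fitted as log2(FPKM + 1) in limma 3.58.1 (R 4.3.3), with a variance trend. The pseudocount of 1 understates changes of low genes. The 4 groups entered 1 fit, with the 2C libraries averaged as 1 sample, so 7 samples left 3 residual degrees of freedom, and 2C took its error from the other groups. Tests were two-sided, with Benjamini-Hochberg adjustment over all genes tested. Among these, 117 genes, 0 of them Zfp genes, had no spread between replicates. The fit was tested on simulated data. Depth was inferred from steps between low values, of which 66.2% to 71.9% lay within 0.05 of whole fragments.

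Reading frames were translated from GENCODE M21 transcripts, since no protein table was used here. A gene had a KRAB box when at least 12 of 19 scored positions matched, a threshold set after the scores, not the levels, were seen. Sequences were read in Python 3.11.15 with Biopython 1.88. Runs joined starts at most 500 kb apart. The corepressor and marker lists, the roles and the members were chosen with earlier results of these data known. Named genes were, per comparison, up to 6 called genes at each end that averaged 5 FPKM or more in the higher group and whose groups did not overlap, the 5 highest in each group, and the role lists. Zfp518a, Zfp229, Zfp760, Zfp820, Zfp947, Zfp995 and the promoter pairs were chosen after their values were seen. Alternatives covered the pseudocount, filters, scaling, entry choice, moderation, 8 separate libraries, the replicate block and leaving out each library.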

Additional observations from a re-analysis of the deposited data

Results flagged for a closer look

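For 8 Zfp genes the difference between CX45 and 8C was not the difference between CX22 and 2C by the limma test of that contrast, in which an adjusted p under 0.05 was required over 11873 genes. These are 2.95% of the Zfp genes, beside 3.6% of all genes tested, and all 8 calls were lost with the replicate number as a block, under quantile normalization, without a variance trend and without either 8C library. On the log2 scale, CX45 minus 8C exceeded CX22 minus 2C by 4.795 in Zfp639, 4.091 in Zfp977, 3.754 in Zfp40 and 3.567 in Zfp963. It exceeded it by 2.677 in Zfp41, 2.21 in Zfp28, 1.945 in Zfp973 and 1.927 in Zfp953, and these 4 passed the expression threshold through 2C alone, with levels of at most 0.463 FPKM in the other groups. Adjusted p ranged from 0.0149 in Zfp953 to 0.0367 in Zfp963. Zfp973 has a transcript accession listed more than once, and its level is uncertain. Zfp977 read 56.5 and 50.1 FPKM in CX45, against 28.2 and 19.2 FPKM in 8C, and 0.678 and 0.411 FPKM in CX22, against 10.99 and 10.5 FPKM in 2C.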

How the results depend on the processing

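With 8 libraries as separate samples the number of Zfp genes called was 123 in 8C against 2C, 37 in CX22 against 2C, 29 in CX45 against 8C, 109 in CX45 against 2C and 50 for the difference of differences, against 75, 7, 0, 52 and 8 with 2C as 1 sample. Of all genes tested, 56.4%, 13.6%, 8.73%, 51.5% and 15.0% were then called, against 37.1%, 3.89%, 0.665%, 29.8% and 3.6%. The replicate numbers do not pair the samples by the labels, and replicate differences correlated between groups by -0.001 to 0.105. With the replicate number as a block 64, 1, 0, 57, 35 and 0 genes were called in 8C against 2C, CX22 against 2C, CX45 against 8C, CX45 against CX22, CX45 against 2C and the difference. Of all genes tested, 31.6%, 1.1%, 0%, 31.7%, 22.4% and 0% were called with the block, in the same order. CX22 against 2C gave 0 calls with at least 4 libraries at 1 FPKM, 1 under quantile normalization and 0 without a variance trend, and the difference gave 0 under each. Of all genes, 0%, 2.1% and 0.505% were called in CX22 against 2C in these fits, and 0% for the difference. CX45 against 8C gave 3 calls with a pseudocount of 0.1, and CX45 against 2C 30 with no filter, beside 1.55% and 15.4% of all genes. Leaving out 1 library gave 14 to 94 calls in 8C against 2C, 2 to 20 in CX22 against 2C, 0 in every case in CX45 against 8C, 35 to 78 in CX45 against CX22, 16 to 77 in CX45 against 2C and 0 to 14 for the difference. Outside CX45 against 8C, the number called among all genes tested rose and fell broadly with these Zfp counts. The ranges therefore do not single out the Zfp genes. A group left with 1 library was assumed to vary like the others. Calls kept under all 18 settings numbered 9 of 75 in 8C against 2C, 18 of 73 in CX45 against CX22, 4 of 52 in CX45 against 2C and 0 in the rest. Zfp644, with its highest transcript entry in place of the sum, was -1.36 in CX45 against CX22 and -3.14 in CX45 against 2C, against 2.19 and 1.93 with the sum, and the cause was not tested beyond the choice of entry. The median of all genes in CX45 against 2C was 0.33, and 0.12 under upper-quartile scaling; in CX45 against CX22 it was 0.47 and 0.28. Symbols of Zfp and digits alone, 252 genes, gave counts within 1.5 times.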
